A study of Arabidopsis thaliana with 24 samples.

Results

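COR15A (AT2G42540), COR15B (AT2G42530), LTI78 (AT5G52310, also RD29A), LTI65 (AT5G52300, also RD29B), KIN1 (AT5G15960) and KIN2 (AT5G15970, also COR6.6) are the 6 classical cold-regulated genes described here, chosen by name and gene identifier. A row was held by 5 of the 6 in each of the tables, out of 10930 genes measured in low light and 11166 in high light. LTI65 was not analysed here. All 24 libraries came from 2-week-old Arabidopsis seedlings of the *Ch1* mutant, which lacks chlorophyll b, in the Col-0 background, so no group held wild-type plants and CAO, the gene mutated in *Ch1*, was not analysed here. Whole seedlings grown on sucrose medium were equilibrated in water, sorted into multiwell plates with water and then kept in low light (LL, 30 µE) or high light (HL, 1000 µE) for 0, 1, 2 or 4 h, with 3 libraries in each of the 8 groups. The labels name no cold treatment in any group. Growth light came in a daily cycle at a level between LL and HL, so each series also held a shift in light. This shift, time in the plate, time since handling and time of day ran together in both series and cannot be told apart. Every comparison with 0 h below carries all of them.

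The COR, LTI and KIN genes encode very hydrophilic proteins that plants accumulate in the cold, in drought and under salt. The COR15 proteins are imported into the chloroplast, where they protect membranes during freezing, while LTI78 and LTI65 are related desiccation-responsive proteins and KIN1 and KIN2 are a nearly identical pair of short polypeptides. In *Arabidopsis*, transcription factors of the CBF (DREB1) family switch these genes on through the CRT/DRE element, whose core is CCGAC, and abscisic acid acts on them through the ABRE element, whose core is ACGTG. LTI78 is mainly driven by the CRT/DRE and LTI65 mainly by abscisic acid. The CBF genes are themselves induced by cold and by mechanical handling and are gated by the circadian clock.

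The 6 genes lie in the TAIR10.1 assembly as 3 tandem pairs on 2 chromosomes. COR15B (chr2:17708593-17710433, minus strand) and COR15A (chr2:17710441-17712330, minus strand) are 7 bases apart, LTI65 (chr5:21237021-21239531, plus strand) and LTI78 (chr5:21240717-21243644, plus strand) are 1185 bases apart, and KIN1 (chr5:5209717-5210826, plus strand) and KIN2 (chr5:5211719-5212743, plus strand) are 892 bases apart. The coding sequences are 82.8% identical between COR15A and COR15B and 95% identical between KIN2 and KIN1. The last 300 bases of the transcripts, near which this 3′ method reads, are 46.6% and 52.9% identical, with longest shared runs of 8 and 14 bases. Reads that match both copies of a pair cannot be told apart, and each pair was also tested with its counts summed.

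Of the CRT/DRE sites of the 5 measured members, 7 are shown. For the COR15 pair and the KIN pair they are those kept at nearly the same distance from the start codon. For LTI78 they are those before its annotated gene start. Each site is read 5′ to 3′ on the gene's strand from the RefSeq TAIR10.1 sequence, with the CCGAC core in capitals, and lies the given number of bases before the start codon.
COR15A, 266 bases before the start codon, chr2:17712216-17712244: acaatttcatggCCGACctgctttttttt
COR15B, 265 bases before the start codon, chr2:17710122-17710150: acaacttgatggCCGACctcttttttctt
KIN1, 178 bases before the start codon, chr5:5209802-5209830: gataaatagctaCCGACataaggcaaaac
KIN2, 185 bases before the start codon, chr5:5211769-5211797: aataaaaagctaCCGACataaggcaaaaa
LTI78, 352 bases before the start codon, chr5:21240565-21240593: aatagacatggaCCGACtactaataatag
LTI78, 302 bases before the start codon, chr5:21240615-21240643: ataaatatcataCCGACatcagtttgaaa
LTI78, 245 bases before the start codon, chr5:21240672-21240700: aaagatatactaCCGACatgagttccaaa

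The printed sites of the COR15 and KIN pairs lie inside the annotated transcript, in the leader before the start codon. The 3 printed for LTI78 lie before the annotated gene start. The sites not printed lie the other way. The other of LTI78, 208 bases before its start codon, is inside the annotated transcript. The other of COR15A, 443 bases before, is before the annotated gene start. On both strands of the 500 bases before the start codon, CCGAC occurred 4 times for LTI78, 2 times for COR15A and 1 time for each of COR15B, LTI65, KIN1 and KIN2, while 23.4% of 27443 genes had at least 1 in that window. ACGTG occurred 7 times for KIN2, 5 times for each of COR15A and KIN1, 4 times for LTI65, 3 times for COR15B and 1 time for LTI78, against 34.9% of genes with at least 1. The palindrome CACGTG counts on both strands and so adds 2 overlapping matches. The evening element of the clock, AATATCT, occurred for COR15A, COR15B, KIN1 and KIN2 and not in this window for LTI78 or LTI65, against 17% of all genes. In the 250 bases before the annotated gene start, CCGAC occurred for COR15A, LTI78 and LTI65 (12% of genes), ACGTG for COR15A, LTI65, KIN1 and KIN2 (22.9%) and AATATCT for KIN1 (10%). For COR15B this window (chr2:17710434-17710683) lies almost wholly inside the COR15A gene. A match is a match of letters only.

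Library totals ran from 1163870 to 2070855 counts. The summed level of the 5 members fell from between 3541 and 5534 CPM (counts scaled to a common library total within each series) at 0 h to between 141.3 and 242.1 at 4 h in LL, and from between 3385 and 4700 to between 177.3 and 341.2 in HL. In whole seedlings, fewer cells of a type and less RNA per cell cannot be told apart. Below, a change was called where edgeR's quasi-likelihood test, fitted over all genes of a series with Benjamini-Hochberg adjustment, gave an adjusted p under 0.05 and the change was at least 2-fold. The labels do not say whether the 3 libraries of a group came from separate cultures, so these p-values measure the spread between these samples only.

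**Figure D1:**
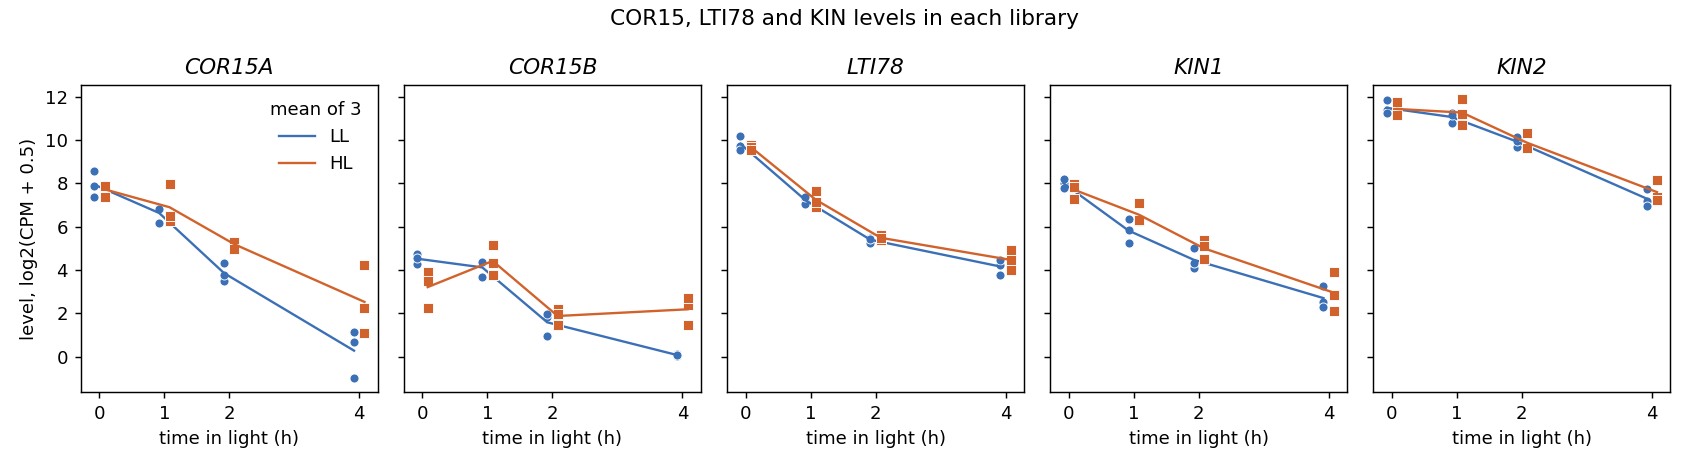
Level of each member, as log2(CPM + 0.5), against hours in light, with circles for the 12 LL libraries, squares for the 12 HL libraries and lines through the means of 3. At 4 h all libraries lay below those of 0 h for all 5 genes in LL and for 4 in HL, while for COR15B in HL the libraries of 4 h (2.21 to 6.03 CPM) overlapped with those of 0 h (4.30 to 14.3 CPM). The levels were scaled within each series.

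LTI78 had the largest fall at 1 h in both series and was lower again at 2 h and 4 h. In LL it stood at 850, 749 and 1149 CPM at 0 h, at 152, 132 and 164 at 1 h, at 44.3, 37.8 and 42.9 at 2 h and at 18.4, 13.3 and 21.4 at 4 h. In HL it stood at 882, 829 and 741 CPM at 0 h, at 199.6, 120.2 and 142 at 1 h, at 40.7, 48.9 and 43.6 at 2 h and at 21.9, 29.6 and 15.5 at 4 h. No library of a later time overlapped with 0 h. The log2 change from 0 h in LL was -2.61 (SE 0.169, adjusted p = 9.35e-09) at 1 h, -4.45 (SE 0.191) at 2 h and -5.69 (SE 0.207, adjusted p = 7.61e-13) at 4 h. In HL it was -2.41 (SE 0.186, adjusted p = 2.56e-08), -4.20 (SE 0.207) and -5.19 (SE 0.223, adjusted p = 2.25e-12). The fall at 4 h came to 50.6-fold by counts in LL (95% counting interval 41.3 to 62.6) and 36.6-fold in HL (30.6 to 44.1). From 2 h to 4 h LTI78 still fell 2.36-fold in LL (adjusted p = 0.00365), while in HL the change of -0.99 (SE 0.224, adjusted p = 0.0114) passed the test and stayed just under 2-fold.

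KIN1 also fell from the first hour, less steeply. In LL it stood at 258, 217 and 298 CPM at 0 h, at 82.1, 37.9 and 56.0 at 1 h, at 16.4, 19.3 and 32.2 at 2 h and at 9.18, 5.31 and 4.38 at 4 h. In HL it stood at 252, 229 and 157 CPM at 0 h, at 135, 77.1 and 78.1 at 1 h, at 21.9, 41.6 and 34.3 at 2 h and at 14.4, 3.84 and 6.63 at 4 h. All later libraries lay below all 0 h libraries of their series. The log2 change in LL was -2.09 (SE 0.236, adjusted p = 5.08e-06) at 1 h, -3.47 (SE 0.263) at 2 h and -5.34 (SE 0.309, adjusted p = 4.8e-10) at 4 h. In HL it was -1.14 (SE 0.264, adjusted p = 0.00439), -2.71 (SE 0.29) and -4.66 (SE 0.347, adjusted p = 4.47e-09), and the call at 1 h was lost without HL 0 h replicate 1, where the change was -0.99 (adjusted p = 0.027).

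KIN2, the neighbour of KIN1, was not called at 1 h and fell afterwards. In LL it stood at 2663, 2392 and 3683 CPM at 0 h, at 2431, 1747 and 2292 at 1 h, at 828, 997 and 1123 at 2 h and at 146, 122 and 215 at 4 h. In HL it stood at 2682, 3402 and 2309 CPM at 0 h, at 3809, 1666 and 2342 at 1 h, at 799.7, 1300 and 791 at 2 h and at 166, 284 and 151 at 4 h. The libraries of 1 h overlapped with those of 0 h in both series, and those of 2 h and 4 h lay below. The change at 1 h was -0.43 (SE 0.196, adjusted p = 0.135) in LL and -0.10 (SE 0.26, adjusted p = 0.842) in HL, neither of which passed the test. At 4 h it was -4.18 (SE 0.226, adjusted p = 2.35e-10) in LL and -3.80 (SE 0.295, adjusted p = 7.76e-09) in HL. From 1 h to 2 h KIN2 fell 2.19-fold in LL and 2.7-fold in HL, and from 2 h to 4 h it fell 6.11-fold and 4.8-fold.

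The difference in timing shows within single libraries. The count of KIN2 over that of LTI78 was between 3.04 and 4.1 in the 6 libraries of 0 h, between 13.2 and 19.1 at 1 h, between 18.1 and 26.6 at 2 h and between 7.61 and 10.1 at 4 h. This ratio was chosen after the values were seen and has no test. Within each time the ranges of the 2 series overlapped.

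COR15A had the largest fitted fall of the 5 at 4 h in LL, on 5 counts, while at 1 h and 2 h the fitted fall of LTI78 was larger. In LL it stood at 234, 164 and 382 CPM at 0 h, at 117, 72.2 and 114 at 1 h, at 10.7, 13.1 and 19.2 at 2 h and at 1.72, 0 and 1.10 at 4 h. The last group held 3, 0 and 2 counts, and the fall from 1112 to 5 counts was 269-fold (95% counting interval 115 to 831), with a fitted log2 change of -8.02 (SE 0.47, adjusted p = 5.57e-10). In HL it stood at 238, 235 and 167 CPM at 0 h, at 252, 75.0 and 88.0 at 1 h, at 39.1, 38.8 and 30.4 at 2 h and at 4.26, 18.1 and 1.66 at 4 h. One HL library of 1 h lay above all of 0 h and the other 2 lay below. The change at 1 h was -1.35 (SE 0.259, adjusted p = 0.00114) in LL, which became -0.97 (adjusted p = 0.00634) and lost the call without LL 0 h replicate 3. In HL at 1 h it was -0.63 (SE 0.376, adjusted p = 0.286), and without HL 1 h replicate 1 it was -1.37 (adjusted p = 0.00761) and called. At 4 h the HL change was -4.73 (SE 0.506, adjusted p = 5.79e-07), a 26.5-fold fall by counts (19.6 to 36.7), and without HL 4 h replicate 2 it was -6.13.

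COR15B had the fewest counts, and its change at 4 h was the only one called different between HL and LL. In LL it held 41, 32 and 28 counts at 0 h, 38, 22 and 15 at 1 h, 2, 4 and 6 at 2 h and 1 in each of the 3 libraries at 4 h. In HL it held 26, 6 and 19 counts at 0 h, then 62, 25 and 41 at 1 h, then 8, 4 and 7 at 2 h, and finally 9, 11 and 4 at 4 h. The LL libraries of 4 h lay far below those of 0 h, at 0.574, 0.531 and 0.548 CPM against 26.1, 18.6 and 23.2. The HL libraries of 4 h, at 4.80, 6.03 and 2.21 CPM, overlapped with those of 0 h, at 14.3, 4.30 and 10.6. In LL the fall at 4 h, from 101 to 3 counts, was 40.8-fold with a wide counting interval (13.6 to 201) and an adjusted p of 6.87e-08 in edgeR. In HL the change at 4 h was -1.19 (SE 0.487) and did not pass the test (adjusted p = 0.0794), although it did so in 1 fit of all 24 libraries (-1.15, adjusted p = 0.0479) and without HL 0 h replicate 2 (-1.48, adjusted p = 0.024). COR15B was also called higher at 1 h in HL (log2 change 1.16, SE 0.383, adjusted p = 0.0427), with overlapping libraries, and this call was lost without any 1 of 4 libraries (HL 0 h replicates 2 and 3 and HL 1 h replicates 1 and 3, adjusted p from 0.0567 to 0.262) and in DESeq2 (adjusted p = 0.054). Its fall at 2 h in HL (-1.60, SE 0.507, adjusted p = 0.0286) was lost without any 1 of 5 libraries: HL 0 h replicates 1 and 3 and each of the 3 of HL 2 h.

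**Figure D2:**
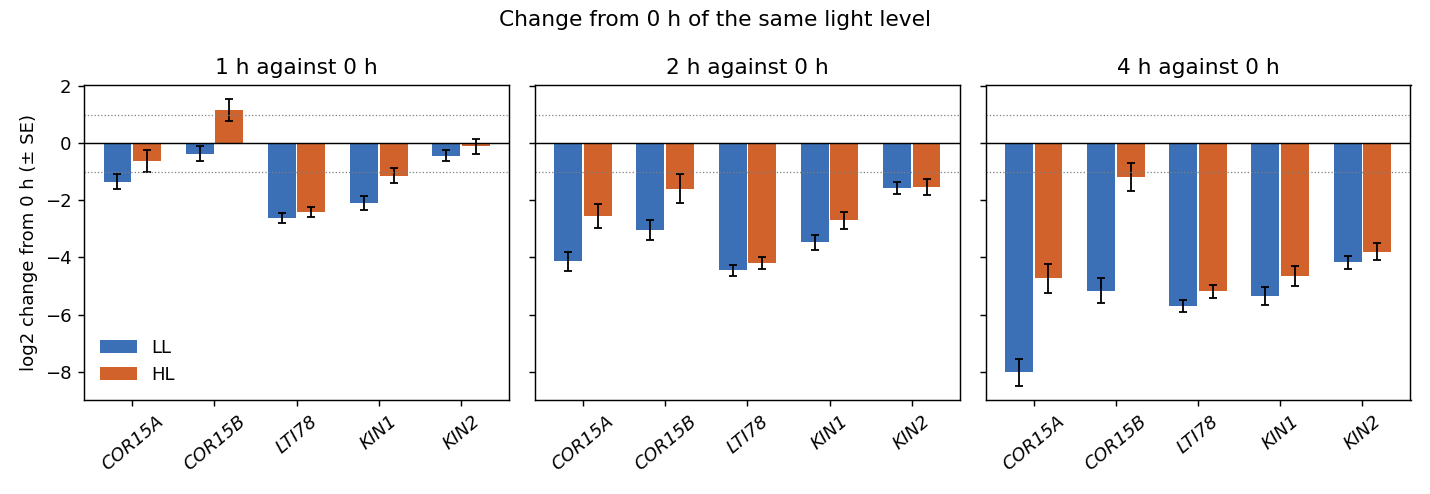
Fitted log2 change from 0 h of the same light level for each member at 1, 2 and 4 h, with bars for the estimate, whiskers for its SE and dotted lines at 2-fold. At 1 h LTI78 stood lowest in both series (-2.61 in LL and -2.41 in HL), and at 4 h COR15B in HL (-1.19) was the smallest change.

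Over the 5 measured members, 3 were called lower at 1 h in LL (7.01% of all genes tested were), 5 at 2 h (8.15%) and 5 at 4 h (10.8%), with medians of -1.35, -3.47 and -5.34 beside -0.04, -0.01 and -0.01 over all genes. In HL 2 were called lower at 1 h (5.05%) and 1 higher (3.96%), 5 lower at 2 h (7.2%) and 4 lower at 4 h (8.17%), with medians of -0.63, -2.56 and -4.66 beside medians over all genes within 0.04 of 0. Ranked from the lowest log2 change at 4 h among the 10930 genes of LL, COR15A was at 2 (fitted on 5 counts at 4 h), LTI78 at 14, KIN1 at 22, COR15B at 29 and KIN2 at 65. Among the 11166 of HL, LTI78 was at 32, COR15A at 43, KIN1 at 46, KIN2 at 78 and COR15B at 991. The fold changes of the steps between later times do not use the 0 h libraries. Their tests come from the same fit, whose estimate of the spread includes those libraries. From 1 h to 2 h all 5 members were called lower in LL (0.622% of all genes) and in HL (0.448%), and from 2 h to 4 h 4 were in LL (0.677%) and 3 in HL (0.761%). The count for 1 h to 2 h in HL ranged from 2 to 5 when single libraries were left out and was 2 without HL 1 h replicate 1, in which every member stood above its group mean (by 0.679 on average in log2). DESeq2 called 3 there. The step of COR15A in HL from 1 h to 2 h was also lost without any 1 of the 3 libraries of HL 2 h (adjusted p from 0.0662 to 0.119), that of KIN2 without HL 2 h replicate 3 (0.0614), and the step of COR15A from 2 h to 4 h without HL 2 h replicate 1 or 2 or HL 4 h replicate 1 or 3 (0.0703 to 0.118). In LL the step of KIN1 from 1 h to 2 h was lost when either of replicate 1 of 1 h (0.122) and replicate 1 of 2 h (0.0791) was left out, and its step from 2 h to 4 h when either of replicate 3 of 2 h (0.0787) and replicate 3 of 4 h (0.0624) was, all in edgeR.

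To compare the courses in HL and LL, the HL change was set against the LL change in 1 fit of 24 libraries. Each light level had its own series with its own 0 h libraries, so light level and series cannot be told apart. COR15B at 4 h was the only member called, with a difference of 4.01 (SE 0.823, adjusted p = 0.00393) at a background of 2.92% of 10349 genes. It stayed called under every alternative run, and the difference ran from 3.70 to 4.36 when single libraries were left out. It rests on 3 counts in LL at 4 h. COR15A at 4 h differed by 3.33 (SE 1.13) without passing the test (adjusted p = 0.0963). It passed in DESeq2 (3.43, adjusted p = 0.0228), with the counts of the COR15 pair summed (3.38, adjusted p = 0.0292) and without HL 4 h replicate 3 (3.81, adjusted p = 0.0475), and was 1.92 without HL 4 h replicate 2. For LTI78, KIN1 and KIN2 at 4 h the differences were 0.53 (SE 0.308), 0.72 (SE 0.579) and 0.41 (SE 0.384), and none passed. At 1 h and 2 h no member was called (0.763% and 0.995% of all genes were), while 2 members at each time had an unadjusted p under 0.05 (COR15B and KIN1 at 1 h, COR15A and COR15B at 2 h), each with the higher value in HL. DESeq2 also called none at 1 h or 2 h.

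COR15B already stood lower at the start of the HL series. At 0 h it was lower in all 3 libraries labelled HL than in all 3 labelled LL (log2 difference -1.08, SE 0.356), with an unadjusted p of 0.00558 that did not pass after adjustment (0.0691). The other 4 members differed at 0 h by between -0.19 and 0.03, and their libraries overlapped. Over all genes 4.48% were called in this comparison, in which 428 genes were lower and 36 higher in HL. With no reference to 0 h, COR15B at 4 h was higher in HL than in LL by 2.94 (SE 0.748, adjusted p = 0.013) with 24 counts against 3, a ratio of 8.59 (95% counting interval 2.61 to 44.6), and 2.91% of genes were called. COR15A was higher by 3.14 (SE 1.06, adjusted p = 0.0759), with 44 counts against 5 and a ratio of 9.45 (3.76 to 30.5), and on the common scale of this fit its HL libraries lay above all LL libraries at 2 h and at 4 h, where the lowest of HL and the highest of LL held 3 counts each (1.74 and 1.65 CPM). No member was called at 1 h (0.406% of genes) or 2 h (2.95%), where 1 member each had an unadjusted p under 0.05 (KIN1, 0.0132, and COR15A, 0.00918). These direct comparisons were added after the data had been seen.

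**Figure D3:**
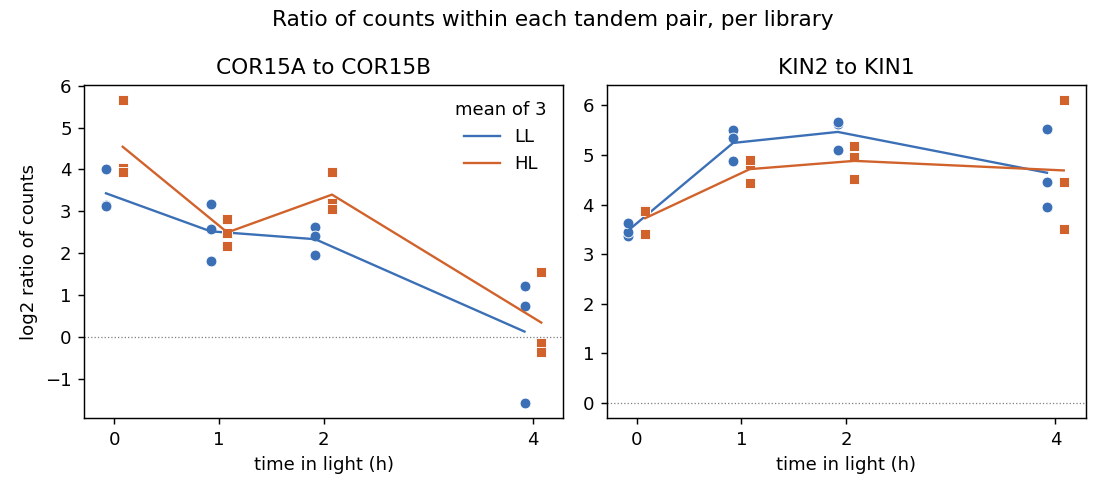
Log2 ratio of counts within each tandem pair in every library, after 0.5 counts were added to each, against hours in light, with circles for LL, squares for HL and lines through the means of 3. The COR15A to COR15B ratio averaged 3.99 at 0 h and 0.23 at 4 h, and the KIN2 to KIN1 ratio averaged 3.61 and 4.67. The COR15A to COR15B ratios of 4 h rest on few counts, at most 3 per gene and library in LL.

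The ratio of counts within the COR15 pair and within the KIN pair differed between 0 h and 4 h. The log2 ratio of COR15A to COR15B counts went from 3.99 ± 0.921 (SD, n = 6 libraries of 0 h) to 0.232 ± 1.16 (SD, n = 6 libraries of 4 h). The difference of -3.75 gave p = 0.00216 in a two-sided exact permutation test, the smallest that 6 against 6 can give, and 0.00432 adjusted over the 2 pairs. All 6 libraries of 4 h lay below all 6 of 0 h. Within LL the difference was -3.31 and within HL -4.20, both with an exact p of 0.1, the smallest that 3 against 3 can give. The pooled test joined series whose 0 h means were 3.43 in LL and 4.54 in HL. The 4 h ratios rest on few counts, at most 3 per gene and library in LL. Adding 0.5 counts pulls such ratios toward 0, so the size of the difference is uncertain. Group totals, with nothing added, gave ratios of 11 at 0 h and 1.67 at 4 h in LL. In HL they gave 20.8 and 1.83. The ratio of KIN2 to KIN1 went the other way, from 3.61 ± 0.234 (SD, n = 6) to 4.67 ± 0.977 (SD, n = 6), a difference of 1.06 (exact permutation p = 0.0152, adjusted p = 0.0152). It was 1.16 within LL (exact p = 0.1) and 0.963 within HL (exact p = 0.3), where 1 library of 4 h overlapped with 0 h. By group totals KIN2 over KIN1 rose from 11.2 at 0 h to 34.9 at 1 h and 42.3 at 2 h in LL and stood at 25.8 at 4 h, and in HL it ran 13, 27, 29.4 and 24.

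As background for the lists of related genes below, 10.8% of all genes in LL and 8.17% in HL were called lower at 4 h, and 5.74% and 7.51% were called higher. Genes of the CBF family dropped to a few counts within the first hour. DDF1, a member of the CBF family, had between 99 and 143 counts in the LL libraries of 0 h and between 243 and 345 in those of HL, and its group totals at 1, 2 and 4 h were 5, 4 and 1 in LL and 18, 1 and 0 in HL. At 0 h DDF1 was called higher in HL than in LL (1.25, SE 0.225, adjusted p = 0.00174 in edgeR). At 1 h it was 66.7-fold lower in LL (95% counting interval 28.3 to 207) and 54.6-fold lower in HL (34.3 to 92.6). At 4 h in HL, with 0 counts, the lower end of the interval was 254-fold. Taking 3 counts as the limit for the whole group gave a floor of 313-fold. At 1 h the LL total of DDF2 was 1 count against 58 at 0 h, and its HL total was 6 against 116. That of CBF2 was 2 against 29 in LL and 1 against 77 in HL, and that of CBF1 was 0 against 8 and 0 against 14. The list of 18 genes labelled CBF regulators holds the CBF family itself beside other genes. At 4 h, 6 of the 9 with a row were called lower in LL (median -1.68) and 6 of 11 in HL (median -1.89), and none was higher. CBF2, DDF1 and DDF2 were among those lower in both series, and CBF1 in HL. ZAT10 and ZAT12, zinc finger genes induced with the CBFs, were also lower in both (ZAT12 -1.68, SE 0.178, in LL and ZAT10 -2.14, SE 0.177, in HL). ICE1 and CAMTA2 were not called, with changes of -0.34 and -0.08 in LL and of -0.13 and -0.40 in HL. CAMTA3, with a row in HL only, was not called either (-1.89, adjusted p = 0.0758 in edgeR). CBF3 was not analysed here. Fitted values of genes at 0 counts depend on the prior count.

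Other cold-regulated genes fell with the members. On a list of 15, 11 of 14 with a row were called lower at 4 h in LL (median -2.15) and 10 of 14 in HL (median -1.78), and 1 was higher in HL, the β-amylase gene BAM3 (1.42, SE 0.147). The dehydrin genes COR47, ERD10 and XERO2 fell, with log2 changes of -2.57, -4.36 and -4.51 in LL and of -2.37, -3.90 and -3.58 in HL. ERD7 also fell, with a log2 change of -3.66 (SE 0.172) in LL. The dehydrin genes ERD14 and RAB18 fell less, with log2 changes of -1.60 and -1.74 in LL. By counts the falls of ERD7, ERD14 and RAB18 at 4 h in HL were 10.9-fold, 3.6-fold and 2.27-fold. Of 12 abscisic acid genes with a row on a list of 16, 2 were called lower and 1 higher at 4 h in each series, near the background shares, with medians of 0.11 and 0.23. Those lower were RD22, a dehydration-responsive gene (-2.17 in LL), and LEA4-5, a late-embryogenesis gene (-3.32 in LL). Those higher were HAI1 in LL (1.57, SE 0.347) and HAB1 in HL (1.31, SE 0.284), both genes of phosphatases that restrain abscisic acid signalling. The bZIP genes ABF1 to ABF4, whose products bind the ABRE, were not called at 4 h in either series. At 1 h, 2 of the 12 abscisic acid genes were called higher in LL and 3 in HL, and 1 and 2 were called lower. The medians of the list at 1 h were 0.22 and 0.25. Over all genes at 1 h, 374 of 10930 were called higher in LL and 3.96% in HL, and 7.01% and 5.05% lower.

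**Figure D4:**
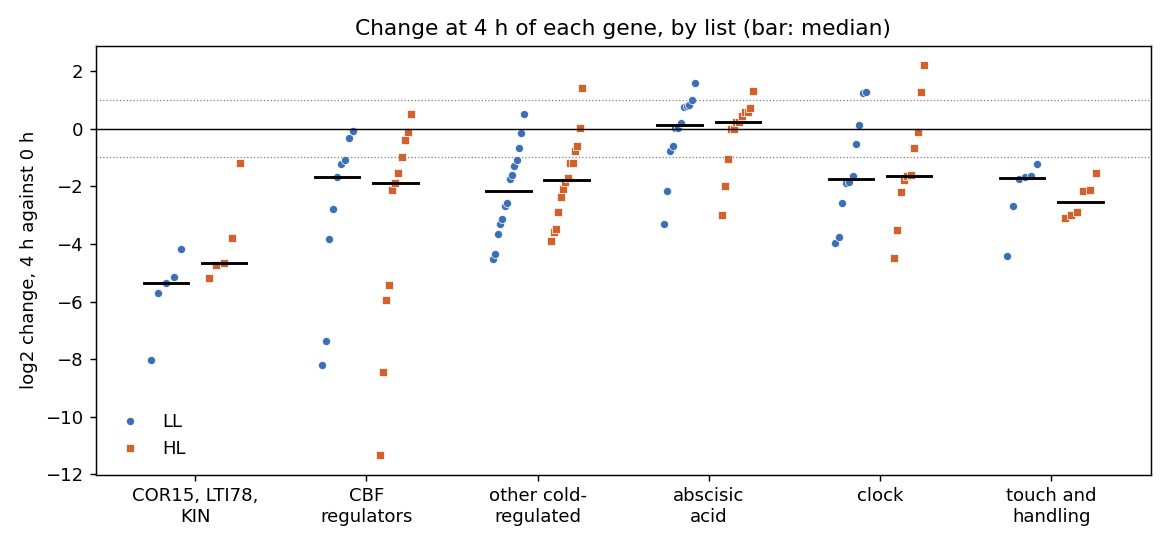
Fitted log2 change at 4 h of every gene with a row, by list, with circles for LL, squares for HL, black bars for medians and dotted lines at 2-fold. The medians of the 5 members, -5.34 and -4.66, lay below those of the 5 other lists. DDF1 and DDF2 were the lowest points on the list labelled CBF regulators, which holds the CBF family itself. These 2 genes rest on 1 count or 0 counts at 4 h, so that their fitted values are no measure of size.

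Handling and clock genes moved at the same time. All 6 touch and handling genes with a row, of 8 listed, were called lower at 4 h in both series (medians -1.72 in LL and -2.54 in HL), and 2 of them, ZAT10 and ZAT12, also stand on the CBF list. At 0 h the list already stood higher in HL than in LL (median 0.67). Of its 6 genes 1 was called higher there, beside 36 of all 10349 genes. The falls in HL thus start from a higher level. TCH3, a calmodulin-like gene induced by touch, had log2 changes of -1.64 (SE 0.132) and -2.17 (SE 0.126), SZF1, a zinc finger gene, one of -2.67 in LL and WRKY40, a WRKY factor gene, one of -2.91 in HL, and the list's summed level ran from 2742 to 3197 CPM at 0 h and from 826.3 to 1037 at 4 h in LL, and from 3557 to 4239 and from 796.5 to 901 in HL. At most 1 gene of the list was at 0 in a library. Of 10 clock genes, 6 were called lower in each series and 1 in LL and 2 in HL higher. Among those lower were PIF4, a growth-promoting bHLH factor gene (-2.59 and -4.50), and GI, a clock and flowering gene (-1.66 and -1.77). Those higher were RVE4 (1.24 and 1.28) and, in HL, RVE8 (2.19), both of which encode MYB-like clock factors that bind the evening element. The shoot markers' summed level ran from 31480 to 33550 CPM at 0 h to 9372 to 12080 at 4 h in LL, and from 20760 to 27470 to 14920 to 21070 in HL, and 4 of 5 were called lower in LL (CAB3, a light-harvesting gene, at -5.19, then CA1, RCA and RBCS1A), and CAB3 lower (-6.08) and GLDP1 higher (1.53) in HL. The root markers' sum stayed between 143.5 and 311.1 CPM in all libraries of both series, with 1 of 8 called lower in LL (CASP1) and 2 lower (CASP1 and TIP2;3) and 2 higher (EXPA7 and PRP3) in HL. The part of handling, clock time or tissue share in the fall of the members was not tested.

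By the root mean square difference of the 6 changes from 0 h, over 4587 genes other than the members with at least 20 CPM at 0 h, the genes most like LTI78 were LHCB2.2 (0.267), AT1G51090 (0.338) and LHCB2.1 (0.352). LHCB2.2 and LHCB2.1, near-identical light-harvesting genes whose reads may be shared, changed by -5.37 and -4.97 at 4 h in LL and by -5.66 and -4.80 in HL. KIN1 was most like XERO2 (0.574), a cold-induced dehydrin gene, AT2G32200 (0.59) and AT5G01380 (0.699). KIN2 was most like LHB1B2 (0.505), XTR6 (0.682) and LHB1B1 (0.696), and LHB1B2, a light-harvesting gene, changed by -0.06 at 1 h and -3.19 at 4 h in LL. The distances were larger for the COR15 genes: outside the members the nearest to COR15A were LHCB3 (1.51), CAB3 (1.52) and LHCB2.2 (1.55), and for COR15B they were OPR1 (0.996), ERD4 (1.13) and VSP1 (1.2). The changes of COR15A and COR15B at 4 h in LL rest on 5 and 3 counts, so these distances are uncertain. OPR1 is an oxophytodienoate reductase gene that changed by 1.23 at 1 h and -0.77 at 4 h in HL and by -3.61 at 4 h in LL. Among the members LTI78 and KIN1 were closest to each other (0.956), and 9 genes outside the members were closer to LTI78 than KIN1 was. COR15A lay closer to KIN1 (1.19) and LTI78 (1.48) than to any of the 4587 genes. The 6 changes share their 0 h libraries within a series, and likeness is given as a description.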

How the data were processed

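Seedling RNA was made into bulk MARS-seq libraries, which read the 3′ ends of transcripts. The authors trimmed reads with cutadapt, mapped them to Araport 11 with STAR 2.4.2a and counted them with HTSeq, and deposited raw counts in 1 table for LL and 1 for HL. How strand and molecular tags were handled is not given in the sources used here. Every gene in either table reaches at least 6 counts in some library. The normalized count values, a signal that the authors made with DESeq2, and their regularised log2 values were deposited too and not used in any test. Columns of the authors' own fold changes and p-values were not used. Counting intervals and floors cover counting error only.

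Counts as deposited were tested with edgeR 4.0.16 (quasi-likelihood, TMM) in R 4.3.3, with 12 libraries per series and 24 over the 10349 shared genes for HL against LL. No further filter was applied. Genes named are all members, the 2 with the smallest p in each direction at 4 h from each list in LL and in HL, the CBF and DDF genes, genes behind a count of 5 or fewer at 4 h, and the 3 genes most like each member. The abscisic acid genes called at 1 h were counted and not named. ABF1 to ABF4, ICE1, CAMTA2, CAMTA3, ERD14 and RAB18 were added after their values had been seen. Members and lists were chosen with earlier results of these data known. Alternatives were RLE scaling, the filterByExpr filter, DESeq2 1.42.0, a replicate block, 1 fit of 24 libraries, summed pairs and leaving out each library. The test script was checked on simulated data. Positions and sequences come from RefSeq TAIR10.1. The tables hold no coordinates. The window of 500 bases before the start codon was added after the annotated starts had been seen.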

Additional observations from a re-analysis of the deposited data

Results flagged for a closer look

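The HL change of COR15B at 4 h differed from its LL change by 4.01 on the log2 scale, by the test of the difference itself (adjusted p = 0.00393 in edgeR). The 3 LL libraries of 4 h held 1 count each, the 3 of HL 9, 11 and 4. All 3 HL libraries of 0 h lay below all 3 of LL.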

How the results depend on the processing

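Replicate numbers did not pair the samples: same-numbered libraries of different groups had a mean correlation of 0.0121 (from -0.316 to 0.404), and 9 of 24 libraries were closest to their own number, so the replicate block is given here only. With the block, 67 of 70 single-member results kept their direction and call, and the 3 others gained a call (COR15B at 4 h in HL, LTI78 from 2 h to 4 h in HL and COR15B at 0 h), which put the count of members called at 0 h in HL against LL at 1. RLE scaling kept 69 of 70, the filterByExpr filter 70 of 70, 1 fit of 24 libraries 49 of 50, DESeq2 64 of 68 and summed pairs 61 of 70.

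DESeq2 called 0 members higher at 1 h in HL, 3 lower from 1 h to 2 h in HL (COR15B had no adjusted p there) and 2 in the HL change against the LL change at 4 h. Summing each pair turned COR15B at 1 h in HL to -0.48, COR15B from 2 h to 4 h in HL to -1.67 and KIN1 at 0 h in HL against LL to 0.012, since COR15A and KIN2 hold most counts of their pairs. The summed KIN pair was not called at 1 h in either series.

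Leaving out single libraries kept 460 of 510. The ranges of counts of all genes called were 45 to 79 (LL, 1 h to 2 h), 52 to 119 (LL, 2 h to 4 h), 23 to 73 (HL, 1 h to 2 h), 13 to 116 and 194 to 333 (HL against LL changes at 1 h and 4 h) and 154 to 519 (0 h). Those of members were 1 to 3 lower and 0 to 1 higher at 1 h in HL, 2 to 5 from 1 h to 2 h in HL, 1 to 2 in the changes at 4 h and 0 to 1 at 0 h. Directions turned only for values that were not called. KIN2 at 1 h in HL ranged from -0.47 to 0.14. Differences of changes ranged from -0.030 to 1.02 (COR15A), -0.016 to 0.36 (LTI78) and -0.038 to 0.58 (KIN2) at 1 h and from -0.21 to 0.22 (KIN2) at 2 h. Those at 0 h ranged from -0.44 to 0.20 (COR15A), -0.20 to 0.13 (LTI78), -0.31 to 0.0067 (KIN1) and -0.14 to 0.25 (KIN2).

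Within LL and HL the pair differences of -3.31, -4.20, 1.16 and 0.963 cannot pass with 3 against 3. Depth limits COR15B most, at 1 count per library in LL at 4 h. The cause of the calls lost or gained was not tested.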
